A study of Mus musculus with 12 samples.

Results

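The genes described are 10 genes of antigen presentation on MHC class I and of recognition by the receptor NKG2D, of 45706 genes in the count table. They were listed by name and found by matching the Ensembl identifiers of the table to mouse gene symbols: H2-K1, H2-D1, B2m, Tap1, Tap2, Tapbp, Psmb8, Psmb9, Nlrc5 and Raet1d. The rule itself uses no measured value, although the list was drawn up with earlier results of these data known. All 10 passed the filter on low counts that left 17003 genes for testing.

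The 12 RNA-seq libraries form 4 groups of 3, all mouse, all with C57BL/6 as the strain label and all derived from embryonic stem cells that carry GFP in the Sox1 locus. NPC were unsorted glial progenitors labelled Sox1-negative, in which Sox1 RNA was nevertheless counted, and NPC(+) were sorted Sox1-positive glial progenitors in which dCas9-VP64, a transcriptional activator without DNA cutting activity, had been targeted to the Sox1 promoter. NSC were unsorted neuroepithelial cells, and NR were GFP-sorted neural rosettes, the polarized early neural progenitors that form from embryonic stem cells. The dCas9-VP64 lines had been grown from single cells, so each is 1 clone, and whether the NPC libraries carried guide RNAs is not stated in the sources used here.

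Class I molecules consist of a polymorphic heavy chain (H2-K1, H2-D1) and the invariant light chain beta-2 microglobulin (B2m), and they show peptides from inside the cell to CD8 T cells. Peptides are cut by the proteasome, whose inducible subunits include Psmb8 and Psmb9, are pumped into the endoplasmic reticulum by Tap1 and Tap2, and are loaded with the help of tapasin (Tapbp), while Nlrc5 is the transactivator of the class I genes. Raet1d encodes a ligand of NKG2D, an activating receptor of natural killer cells. Neural cells are known for low class I expression.

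The total count was 4939268 to 18351483 for NPC, 3407066 to 6315574 for NPC(+), 29046205 to 43095688 for NSC and 16707006 to 34594885 for NR. A low count in NPC or NPC(+) is therefore the least precise, and 3 counts, the limit that a count of 0 allows, correspond to 0.408 CPM (counts per 1000000, with TMM-scaled library totals) for NPC, 0.613 for NPC(+), 0.0874 for NSC and 0.122 for NR. Sox1, the targeted gene, was at 4.83, 6.00 and 5.43 CPM in NPC and at 20.3, 20.9 and 21.7 CPM in NPC(+). It was at 48.6, 64.9 and 51.8 CPM in NSC and at 4.62, 20.0 and 19.2 CPM in NR. The library labelled NR replicate 1 thus had the Sox1 level of NPC although its label gives a GFP sort, and no member gained or lost its call when it was left out.

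The sequences that matter most for reading these data are those that separate Raet1d from its neighbour Raet1e, because reads from one can be assigned to the other. Both genes are on chromosome 10, and 55.8% of the 50-base words of Raet1d also occur in Raet1e. The aligned coding sequences were identical at 710 of 741 bases (95.8%). The following 90 bases of coding sequence (GRCm38, plus strand, chr10:22370918-22371007 for Raet1d and chr10:22180682-22180771 for Raet1e) are a stretch with 10 differences, shown in capitals.
Raet1d: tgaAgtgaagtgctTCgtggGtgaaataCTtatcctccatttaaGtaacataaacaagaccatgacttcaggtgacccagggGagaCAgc
Raet1e: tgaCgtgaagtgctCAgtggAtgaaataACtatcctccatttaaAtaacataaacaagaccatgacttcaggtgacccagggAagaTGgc

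A RefSeq promoter of Raet1e in front of the annotated start of the gene (chr10:22158319-22158568) had another sequence and is not shown. The 246 bases compared lie in front of the RefSeq start of Raet1d and of a later start of Raet1e. They (GRCm38.p6, plus strand, chr10:22361646-22361891 and chr10:22173251-22173496) differed at 3 bases, again in capitals.
Raet1d: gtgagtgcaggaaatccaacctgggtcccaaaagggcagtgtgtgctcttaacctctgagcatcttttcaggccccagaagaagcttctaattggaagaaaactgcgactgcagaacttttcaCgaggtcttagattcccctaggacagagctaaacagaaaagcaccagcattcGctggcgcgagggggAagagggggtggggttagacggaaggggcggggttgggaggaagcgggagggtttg
Raet1e: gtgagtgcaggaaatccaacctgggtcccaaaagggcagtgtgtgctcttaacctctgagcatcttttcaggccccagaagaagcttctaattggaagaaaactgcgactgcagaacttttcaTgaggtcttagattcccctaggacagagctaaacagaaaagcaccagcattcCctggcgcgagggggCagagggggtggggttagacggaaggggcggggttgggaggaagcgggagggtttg

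The promoters of a heavy chain and of the light chain are shown because their RNA levels moved in opposite directions. RefSeq promoters were found for 8 of the 10 genes, and those of H2-K1 (minus strand, chr17:34000348-34000597) and B2m (plus strand, chr2:122147437-122147685) lie outside annotated exons. Capitals mark matches of a search on both strands. In H2-K1 the first is the class I kappa B site, which lies 111 to 102 bases before the start, and in B2m the first is an interferon-stimulated response element, 139 to 130 bases before it. The second in each is the inverted CCAAT box, ATTGG. Each site was searched as a fixed pattern of letters, and variants of it were not searched. The capitals therefore do not show that H2-K1 lacks a response element or that B2m lacks a kappa B site. Whether the marked sites bear on the opposite RNA changes was not tested.
H2-K1: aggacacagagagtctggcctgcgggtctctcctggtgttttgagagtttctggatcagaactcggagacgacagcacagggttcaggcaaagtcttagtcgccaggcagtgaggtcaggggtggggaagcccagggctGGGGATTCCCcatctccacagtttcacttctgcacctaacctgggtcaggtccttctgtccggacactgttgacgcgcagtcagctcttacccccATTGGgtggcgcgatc
B2m: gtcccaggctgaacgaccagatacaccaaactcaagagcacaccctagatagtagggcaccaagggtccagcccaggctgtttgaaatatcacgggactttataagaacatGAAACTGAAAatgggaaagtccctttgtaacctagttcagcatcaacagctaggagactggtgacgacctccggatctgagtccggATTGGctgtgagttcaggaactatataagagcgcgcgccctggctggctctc

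Of 32851 mouse promoters of the same length, 0.0852% held the kappa B site, 2.98% the response element and 33.8% ATTGG. The kappa B site was also present upstream of H2-D1, 171 to 162 bases before the start. The gamma-activated site TTCNNNGAA, held by 7.02% of promoters, was found in that of Psmb8, and the RFX motif AGCAAC, held by 12.2%, was found in none of the 8. These are matches of letters, and binding was not measured.

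In the Sox1-positive NPC(+), 6 of the 10 genes were higher than in NPC and 1 was lower at an adjusted p under 0.1 and a p under 0.05 in edgeR's quasi-likelihood test, where 21.6% of all genes tested were higher and 22.7% were lower. H2-K1, H2-D1, Tap1, Psmb9, Nlrc5 and Raet1d were higher, B2m was lower, and Tap2, Tapbp and Psmb8 did not pass. In NSC 8 members were higher than in NPC and B2m was lower (background 42.7% higher and 32.5% lower). In NR 9 were higher and B2m was lower (background 44.2% and 32.8%). The median log2 fold change of the 10 genes against NPC was 1.74 in NPC(+), 4.23 in NSC and 4.67 in NR, and over all genes it was 0.00, 0.20 and 0.19. With genes at the NPC limit set to their lower bounds, the median was 0.95 in NPC(+) (9 genes, Psmb8 being at the limit in both groups), 1.72 in NSC and 2.34 in NR. The 3 comparisons share the NPC libraries.

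**Figure D1:**
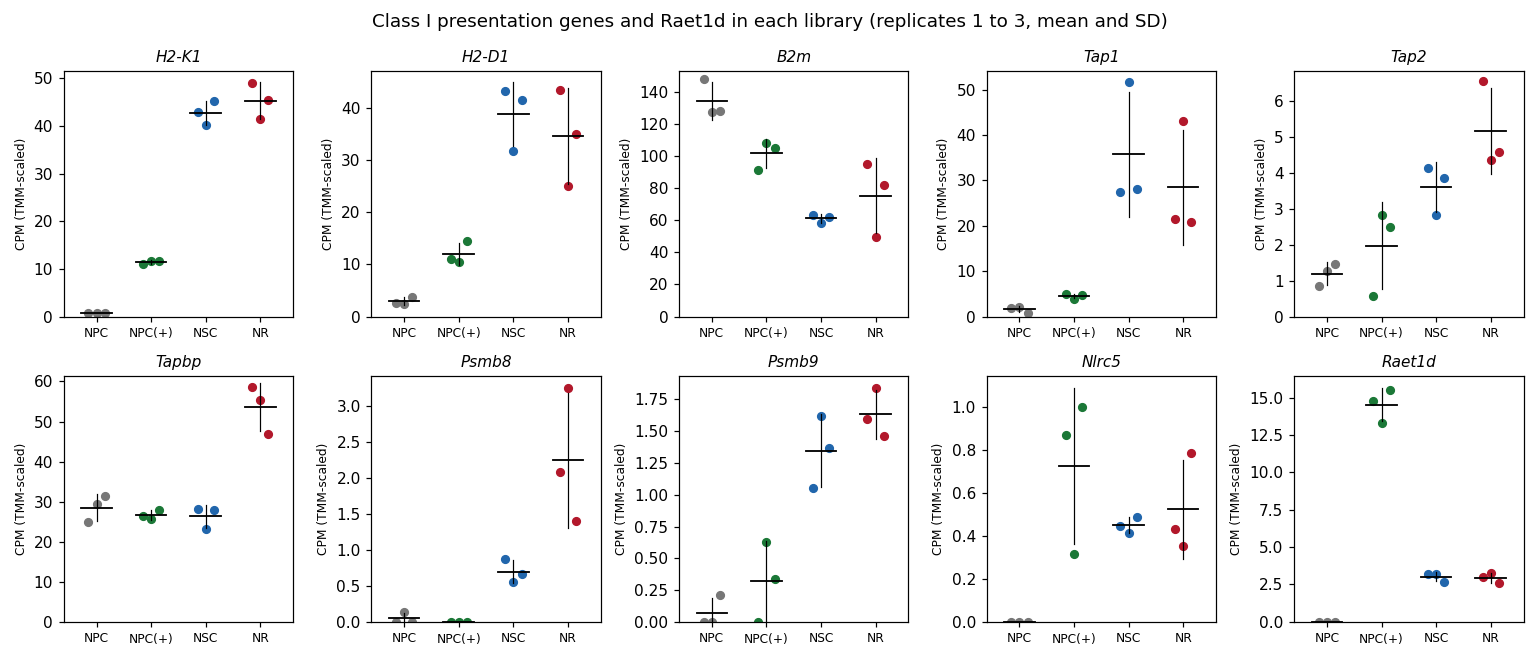
Level of each of the 10 genes in CPM (TMM-scaled) in the 3 libraries of each group, with the mean (horizontal line) and SD (vertical line). H2-K1 averaged 0.836 CPM (NPC), 11.4 CPM (NPC(+)), 42.8 CPM (NSC) and 45.3 CPM (NR), while B2m was highest in NPC and Raet1d was highest in NPC(+).

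H2-K1, a classical class I heavy chain (chromosome 17, 33996017 to 34000347, minus strand), was near its detection limit in NPC. Its level was 0.835, 0.837 and 0.835 CPM in the NPC libraries, from 14, 6 and 4 counts, and 11, 11.6 and 11.7 CPM in NPC(+). It was 42.9, 40.2 and 45.2 CPM in NSC and 49.1, 41.4 and 45.4 CPM in NR. The groups NPC, NPC(+) and NSC did not overlap, and NSC and NR did. H2-K1 in NPC(+) exceeded that in NPC 13.6-fold (log2 fold change 3.77, standard error 0.17, adjusted p = 4.63e-09), 50.8-fold higher in NSC and 53.7-fold higher in NR. NPC(+) remained 3.73-fold below NSC (adjusted p = 5.81e-09) and 3.94-fold below NR (adjusted p = 3.87e-09).

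H2-D1, the other classical heavy chain (chromosome 17, 35262730 to 35267499, plus strand), followed the same order at a smaller range. It was at 2.69, 2.37 and 3.76 CPM in NPC and at 11, 10.5 and 14.5 CPM in NPC(+). NSC had 43.2, 31.7 and 41.4 CPM, and NR had 43.5, 25.1 and 35.0 CPM. All NPC(+) libraries lay above all NPC libraries and below all NSC and NR libraries. The log2 difference from NPC was 2.09 for NPC(+) (SE 0.27, adjusted p = 4.46e-05), that of NSC was 3.77 and that of NR was 3.6. H2-K1 and H2-D1 share some sequence, with 90.4% and 87.2% of their 50-base words unique and 91.4% identity in the aligned coding sequence.

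The 2 heavy chains did not contribute equally in each group. Per exonic length, H2-K1 made up 21.5%, 23.7% and 16.3% of the sum of H2-K1 and H2-D1 in NPC and 46.7%, 49.2% and 41.4% in NPC(+). The share was 46.6%, 52.7% and 48.9% in NSC and 49.8%, 59.1% and 53.3% in NR. NPC lay below the other 3 groups without overlap, and NPC(+) overlapped NSC. The shares differed over the 4 groups (exact permutation test of the between-group sum of squares over 369600 arrangements, p = 0.00149, adjusted p = 0.00187 over 5 ratios). Pairs of groups were not tested for this share.

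B2m (chromosome 2, 122147686 to 122153083, plus strand), the light chain that class I molecules need to reach the cell surface, went the other way. It was at 148, 127 and 128 CPM in NPC and at 91.5, 108 and 105 CPM in NPC(+). NSC had 63.2, 58.2 and 61.8 CPM, and NR had 94.8, 49.3 and 81.7 CPM. NPC did not overlap any other group, and NR spread from below NSC to the range of NPC(+). B2m fell by 1.14 on the log2 scale in NSC (standard error 0.18, adjusted p = 4.64e-05) and by 0.84 in NR (standard error 0.17, adjusted p = 0.000563). In NPC(+) it fell by 0.41 (standard error 0.18, adjusted p = 0.0902), a call that was lost without any single NPC or NPC(+) library (log2 fold change -0.46 to -0.30) and without NSC replicate 1, NSC replicate 3 or NR replicate 3 (-0.39 each).

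The excess of light chain over heavy chain RNA was largest in NPC. Per exonic length, B2m was 130, 123 and 85.3 times the sum of H2-K1 and H2-D1 in the NPC libraries and 13.3, 15.6 and 12.7 times in NPC(+). It was 2.34, 2.61 and 2.29 times that sum in NSC and 3.28, 2.41 and 3.28 times in NR. NPC, NPC(+) and the pair of NSC and NR did not overlap, and B2m exceeded the heavy chains in all 12 libraries. The ratio differed over the 4 groups (exact permutation test of the between-group sum of squares, p = 0.00013, adjusted p = 0.000649 over 5 ratios, where 6.49e-05 is the smallest p the design allows).

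**Figure D2:**
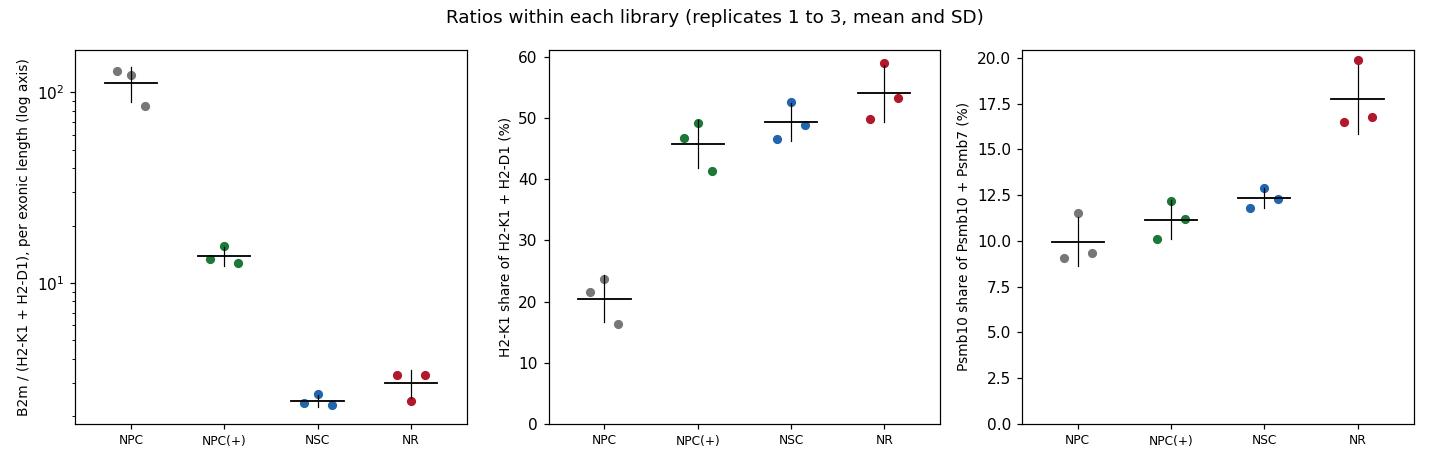
Ratios within each library, from counts divided by exonic length: B2m over the sum of H2-K1 and H2-D1 (log axis), the H2-K1 share of that sum in percent, and the Psmb10 share of Psmb10 plus Psmb7 in percent; points are libraries, with the mean and SD. B2m per heavy chain averaged 113 (NPC), 13.8 (NPC(+)), 2.41 (NSC) and 2.99 (NR).

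Tap1 and Tap2, the paired chains of the peptide transporter (chromosome 17, 34187553 to 34197225 and 34203527 to 34216321, plus strand), differed in how much they changed. Tap1 was at 1.85, 2.09 and 0.835 CPM in NPC and at 4.92, 3.93 and 4.67 CPM in NPC(+). NSC had 27.4, 51.6 and 28.2 CPM, and NR had 21.5, 43 and 20.8 CPM. Replicate 2 was the highest library of both NSC and NR, and NPC, NPC(+) and the pair of NSC and NR did not overlap. NPC(+) exceeded NPC 2.6-fold in Tap1 (log2 fold change 1.38, standard error 0.49, adjusted p = 0.039), which did not pass without NPC(+) replicate 3 (1.34). It was 20.8-fold higher in NSC (adjusted p = 2.7e-07) and 16.6-fold higher in NR (adjusted p = 5.4e-07), and NPC(+) was 8-fold below NSC.

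Tap2 was at 0.835, 1.26 and 1.46 CPM in NPC and at 0.579, 2.83 and 2.50 CPM in NPC(+), so these groups overlapped. In NSC it was at 4.14, 2.83 and 3.84 CPM and in NR at 6.53, 4.36 and 4.58 CPM. The log2 fold change against NPC was 0.95 in NPC(+) (standard error 0.45, adjusted p = 0.122), 1.71 in NSC (adjusted p = 0.00121) and 2.21 in NR (adjusted p = 0.000131). The NPC(+) difference did pass without NPC(+) replicate 1 (1.29) or NSC replicate 2 (0.99).

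Tapbp, encoding tapasin, which holds empty class I molecules at the transporter (chromosome 17, 33915899 to 33929292, plus strand), separated NR from the rest. It was at 24.8, 29.3 and 31.3 CPM in NPC, at 26.3, 25.6 and 28 CPM in NPC(+) and at 28.1, 23.1 and 27.9 CPM in NSC. NR had 58.5, 55.3 and 47.0 CPM, above every other library. Its exons share 904 bases (24.9%) with the antisense gene Gm19412, which had at most 2 counts in a library, and 149 bases (4.1%) with Zbtb22 on the same strand, which had up to 2539. Tapbp was 1.90-fold higher in NR than in NPC (adjusted p = 1.23e-05) and 2.03-fold higher than in NSC (adjusted p = 2.18e-05). Against NPC the log2 fold change was -0.08 in NPC(+) and -0.10 in NSC (standard errors 0.13 and 0.12), and neither passed.

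Psmb8 and Psmb9, the inducible catalytic subunits that replace Psmb5 and Psmb6, were at a handful of counts in the glial progenitors. Psmb8 had 0, 1 and 0 counts in NPC and 0 in each NPC(+) library, against 39, 16 and 22 in NSC and 34, 101 and 50 in NR. Psmb9 had 0, 0 and 1 counts in NPC and 0, 4 and 2 in NPC(+), against 47, 47 and 45 in NSC and 26, 57 and 52 in NR. For both genes every NSC and NR library lay above every NPC and NPC(+) library. Measured against the limit of 3 counts per library in NPC, Psmb8 was at least 1.71-fold higher in NSC and at least 5.52-fold higher in NR, and Psmb9 at least 3.31-fold and 4.01-fold higher. Psmb9 passed in NPC(+) against NPC (adjusted p = 0.0484) although the groups overlapped and the NPC(+) mean was only 0.786 times the NPC limit, so no fold is given for it. It did not pass without NPC replicate 1, NPC replicate 2 or NPC(+) replicate 2. Psmb8 was 3.17-fold higher in NR than in NSC (adjusted p = 0.0042).

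The constitutive subunits were far more abundant in every library. Per exonic length, Psmb8 was 0.350% of Psmb8 plus Psmb5 in NSC (SD 0.0871, n = 3) and 0.856% in NR (SD 0.408, n = 3), and Psmb9 was 0.202% of Psmb9 plus Psmb6 in NSC and 0.219% in NR. These shares differed over the 4 groups (exact permutation test of the between-group sum of squares, adjusted p = 0.00162 and 0.0024). The exonic length is the union of all annotated exons, 3381 bases for Psmb8 and 3660 for Psmb9. It is 899 bases for Psmb5 and 1872 for Psmb6. If the expressed transcripts of Psmb8 and Psmb9 are shorter than that union, their shares are understated. The third inducible subunit, Psmb10, was detected throughout, with a share of Psmb10 plus Psmb7 that averaged 9.98% (NPC), 11.2% (NPC(+)), 12.3% (NSC) and 17.7% (NR) (adjusted p = 0.00187). The annotated exons of Tap1, Tap2, Tapbp, Psmb8 and Psmb9 overlap other genes. Psmb9 and Tap1 share 212 exonic bases on opposite strands, and reads there cannot be told apart without strand. Tapbp and Zbtb22 overlap on the same strand, so strand would not separate their shared reads.

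Nlrc5, the class I transactivator (chromosome 8, 94434356 to 94527272, plus strand), had 0 counts in all 3 NPC libraries and 3, 2 and 6 counts in NPC(+). It had 20, 12 and 16 counts in NSC and 7, 11 and 28 in NR. NPC(+), NSC and NR overlapped in CPM, at means of 0.728, 0.450 and 0.524. All 3 groups passed against NPC (adjusted p = 0.00207, 0.00109 and 0.000616), and against the limit of 3 counts per library Nlrc5 was at least 1.78-fold, 1.1-fold and 1.29-fold higher. Genes of chromosome 8 had a median log2 fold change 0.58 above that of all genes in NSC and 0.48 above it in NR, and -0.02 relative to it in NPC(+), a shift whose part in Nlrc5 and Psmb10 was not tested.

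**Figure D3:**
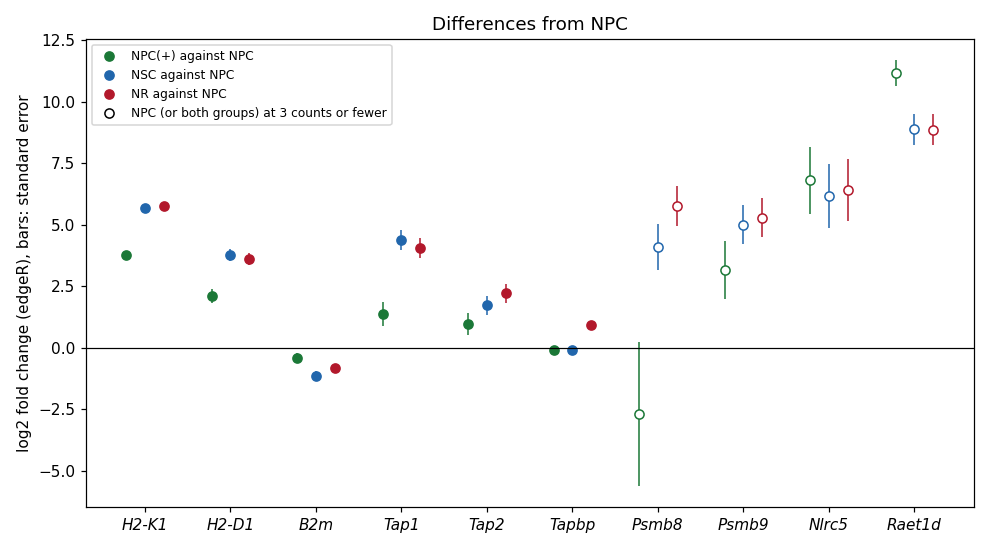
Log2 fold change of each gene against NPC in NPC(+), NSC and NR (edgeR), with standard errors; open circles mark genes for which NPC had 3 counts or fewer in each library, whose fitted values depend on the prior count. The filled points of H2-K1, H2-D1 and Tap1 lie above 0 and those of B2m lie below 0 in all 3 groups.

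Raet1d, encoding an NKG2D ligand of the Rae-1 family (chromosome 10, 22360552 to 22374139, plus strand), was highest in NPC(+), without overlap with the other groups. It had 0 counts in all 3 NPC libraries and 51, 85 and 93 counts in NPC(+), or 14.8, 13.3 and 15.5 CPM. It was at 3.18, 3.21 and 2.68 CPM in NSC and at 3.02, 3.26 and 2.59 CPM in NR, which overlapped. Against the limit of 3 counts per library in NPC, the NPC(+) level of Raet1d was at least 35.6-fold higher (adjusted p = 2.84e-08), at least 7.41-fold higher in NSC and at least 7.24-fold higher in NR. NPC(+) was 4.80-fold above NSC (adjusted p = 1.23e-06) and 4.92-fold above NR (adjusted p = 1.09e-06).

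The neighbour Raet1e gave a different picture. It had 3, 0 and 1 counts in NPC and 0 in each NPC(+) library, against 294, 157 and 186 in NSC and 177, 240 and 330 in NR. Raet1d therefore took 100% of the counts of the pair in each NPC(+) library, 32.6%, 37.2% and 32.1% in NSC and 21.7%, 29.6% and 21.8% in NR. The 2 genes share 363 exonic bases in the annotation, and how the counting divided reads common to both is not stated.

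**Figure D4:**
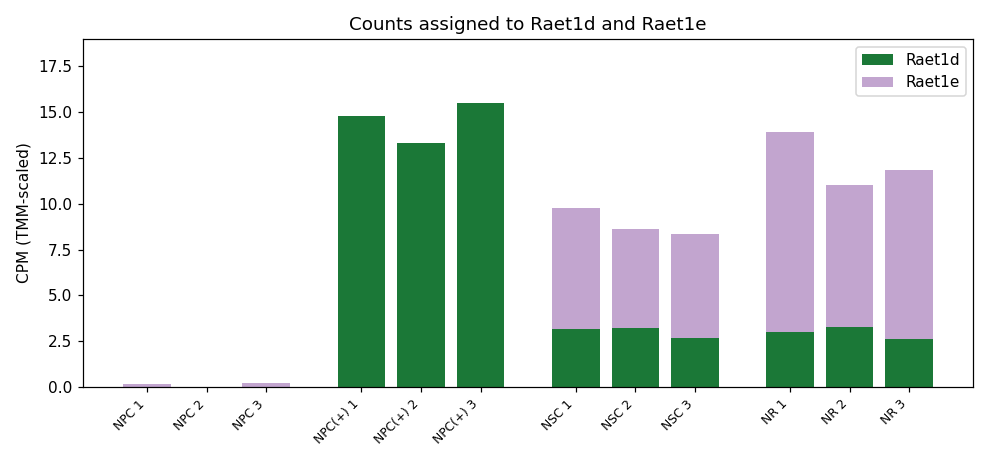
Level in CPM (TMM-scaled) assigned to Raet1d and Raet1e, stacked, in each of the 12 libraries. The bars of NPC(+) hold Raet1d alone at 13.3 to 15.5 CPM, those of NSC and NR hold both genes, and those of NPC are near 0.

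Whether reads common to both genes were counted or dropped is not stated. The sum of both genes does not depend on how the counted reads were divided between them, but would lack dropped reads. It was 0.179, 0 and 0.209 CPM in NPC, 14.8, 13.3 and 15.5 CPM in NPC(+), 9.75, 8.63 and 8.35 CPM in NSC and 13.9, 11 and 11.9 CPM in NR. NPC(+) overlapped NR and lay above NSC. With the pair counted as 1 gene, an alternative chosen after seeing the data, NPC(+) was 1.63-fold above NSC (log2 fold change 0.70, standard error 0.19, adjusted p = 0.00439). Its difference from NR was 0.25 on the log2 scale (standard error 0.19, adjusted p = 0.247). NR against NSC was 0.45 (standard error 0.18, adjusted p = 0.046).

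Of the other NKG2D ligands and the receptor, 6 of 10 listed genes were in the table and 2 were tested, Raet1e and Ulbp1. Raet1a, Raet1b, Raet1c and H60a had no entry under these symbols, although the paper names Raet1a among its most strongly induced genes. Whether reads from such related genes were counted for Raet1d was not tested. Ulbp1 was at 0.0895 CPM in NPC and 0.379 CPM in NPC(+) (adjusted p = 0.0612), with 0.429 CPM in NSC and 0.742 CPM in NR. Its counts were 1, 0 and 1 in NPC and 0, 3 and 4 in NPC(+), near the detection limit, and these groups overlapped.

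Few of the 10 genes separated NR from NSC. In NR 2 members, Tapbp and Psmb8, were higher than in NSC and 0 were lower, where 29.5% of all genes were higher and 25.8% were lower. Between same-numbered libraries Tap1 was lower and Tap2 higher in NR in 3 of 3 pairs, and with the replicate block neither passed (log2 fold change -0.34, standard error 0.18, adjusted p = 0.117 for Tap1, and 0.50, standard error 0.27, adjusted p = 0.139 for Tap2). NPC(+) against NSC had 2 members higher, B2m and Raet1d, and 5 lower, H2-K1, H2-D1, Tap1, Psmb8 and Psmb9 (background 30% higher and 39.9% lower). NPC(+) against NR had the same 2 higher and 7 lower, with Tap2 and Tapbp added (background 30.8% and 42.9%). The B2m difference between NPC(+) and NR (log2 fold change 0.44, adjusted p = 0.04) was lost without NR replicate 2 (0.20), NPC(+) replicate 2 (0.38) or NPC(+) replicate 3 (0.40). Without NR replicate 2, B2m was higher (0.53) and Tap1 lower (-0.76) in NR than in NSC.

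Among 18 tested class I-like and non-classical class I genes, 4 were higher and 0 lower in NPC(+) than in NPC, 10 higher and 3 lower in NSC, and 13 higher and 3 lower in NR. The shares of all genes for these and the following lists were 21.6% higher and 22.7% lower in NPC(+), 42.7% and 32.5% in NSC, and 44.2% and 32.8% in NR. The 4 of 18 in NPC(+) were thus close to the share of all genes. H2-Q7, a non-classical heavy chain, had 0, 1 and 0 counts in NPC and 4, 18 and 5 in NPC(+). It exceeded the NPC limit by at least 3.94-fold there (adjusted p = 0.000199) and was at least 12.9-fold higher in NSC. Cd1d1, which presents lipids, was 29.4 CPM in NPC, 43.1 CPM in NPC(+) (adjusted p = 0.0308), 4.11 CPM in NSC and 3.87 CPM in NR, so it moved in the opposite direction in NSC and NR. Fcgrt, the neonatal Fc receptor, which also pairs with B2m, fell by 2.89 on the log2 scale in NSC (adjusted p = 5.44e-06).

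Of 20 genes of peptide generation and loading, 7 were higher and 3 lower in NPC(+), 8 higher and 7 lower in NSC, and 12 higher and 4 lower in NR, against the same shares of all genes, which the counts in NSC were close to. Hspa5, an endoplasmic reticulum chaperone, averaged 674 CPM (NPC), 1160 CPM (NPC(+)), 1580 CPM (NSC) and 1650 CPM (NR). Calr, calreticulin of the loading complex, was 339 CPM in NPC, 802 CPM in NSC (adjusted p = 1.03e-07) and 861 CPM in NR (adjusted p = 4.46e-08).

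Of 26 tested class I regulators and interferon receptors, 10 were higher and 6 lower in NPC(+), 11 higher and 8 lower in NSC, and 11 higher and 12 lower in NR. In NSC both counts, in NR the count of higher genes, and in NPC(+) the count of lower genes were close to the shares of all genes. Irf1, a transcription factor of the interferon response that binds class I promoters, was at 3.10, 3.07 and 5.22 CPM in NPC and at 15.6, 14.8 and 15.2 CPM in NPC(+) (log2 fold change 2.07, standard error 0.24, adjusted p = 1.55e-05). It was at 9.06, 6.97 and 9.75 CPM in NSC and at 44.0, 35.0 and 28.7 CPM in NR. Rfx5, a subunit of the factor that binds class I and class II promoters, was higher in NPC(+) (0.84, adjusted p = 4.46e-05) and lower in NSC and NR. None of 7 interferon genes had enough counts to be tested.

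Of 8 tested ligands of other natural killer and T cell receptors, 1 was higher and 1 lower in NPC(+), 5 higher and 2 lower in NSC, and 6 higher and 1 lower in NR. With so few genes, these counts and those of the class II genes were not set apart from the shares of all genes. The adhesion molecule Icam1 was at 0.0398 CPM in NPC and was at least 20.4-fold higher in NSC and at least 56.4-fold higher in NR. Of 5 tested class II genes, 2 were higher in NPC(+), 3 were higher and 1 lower in NSC, and 4 were higher and 1 lower in NR. The 2 in NPC(+) were H2-Ab1 (0.0664 to 0.906 CPM) and H2-DMb1 (0.0199 to 0.574 CPM). Both were near the detection limit, with at most 1 count in an NPC library. In NPC(+) H2-Ab1 had 2, 3 and 10 counts and H2-DMb1 had 1, 7 and 2.

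Markers of other cell types moved with NSC and NR. The sum of 7 fibroblast and feeder cell markers was 20.5 to 23.7 CPM for NPC, 26.6 to 40.7 for NPC(+), 951 to 3580 for NSC and 1420 to 7730 for NR, and all 7 were higher in NSC and in NR than in NPC. The sum of 6 pluripotency markers was 6.47 to 7.39 CPM in NPC, 7.69 to 9.34 in NPC(+), 46.5 to 144 in NSC and 1410 to 2690 in NR, again with all 6 higher in both. In NPC(+) against NPC 0 of the 7 and 0 of the 6 passed. Replicate 2 had the lowest fibroblast sum in both NSC and NR. It was also the lowest library of both groups for H2-K1, H2-D1, B2m, Tap2 and Nlrc5, and the highest of both for Tap1, Psmb9 and Raet1d. For Tapbp and Psmb8 it was neither. How many of all genes share such an order was not counted, and over the genes tested replicate 2 deviated alike in NSC and NR (r = 0.49). Some orders rest on small differences, as for Raet1d in NSC (3.21 CPM in replicate 2 and 3.18 CPM in replicate 1). The part of fibroblast, feeder and pluripotent cells in the levels of NSC and NR was not tested. In bulk RNA fewer cells of a type and less RNA per cell cannot be told apart.

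**Figure D5:**
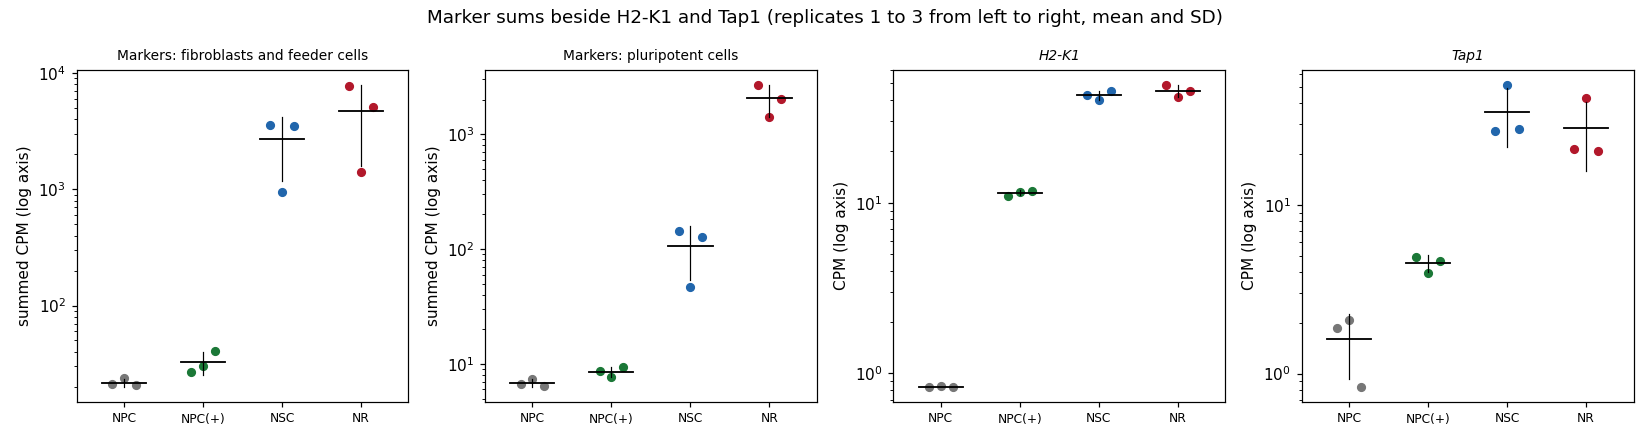
Summed level of the fibroblast and feeder cell markers and of the pluripotency markers beside H2-K1 and Tap1, in CPM on log axes, for replicates 1 to 3 of each group from left to right, with the mean and SD. Replicate 2 of NSC and of NR is lowest in the fibroblast sum and in H2-K1 and highest in Tap1; H2-K1 spans 40.2 to 45.2 CPM in NSC and 41.4 to 49.1 CPM in NR.

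Leukocyte and microglia markers, 8 in all, summed to 6.36 to 8.44 CPM in NR and to 1.45 to 4.17 CPM in the other groups. Up to 7 of them were at 0 in an NPC library, up to 6 in NPC(+), up to 3 in NSC and up to 2 in NR. The 2 tested, Itgam and Cd68, were higher in NR than in each other group, at 1.81 and 4.57 CPM. Neural progenitor markers summed to 2190 to 2230 CPM in NPC, 1690 to 1730 in NPC(+), 2190 to 2480 in NSC and 783 to 1330 in NR. These sums hide markers that went opposite ways. Against NPC, 4 of the 7 were higher and 3 lower in NSC, and 2 were higher and 5 lower in NR. In NPC(+) 1 was higher, Nes, and 4 were lower. The sum of 6 neuron markers was 322 to 685 CPM over the 12 libraries, but 4 of them were higher and 2 lower in NSC and in NR than in NPC. Tubb3 averaged 5.37 CPM in NPC, 253 CPM in NSC and 137 CPM in NR, and Stmn2 averaged 0.766, 117 and 131 CPM, while Map2 averaged 464, 89.9 and 37.9 CPM. In NPC(+) 0 of the 6 were higher and 1 was lower than in NPC. The part of these cells was likewise not tested. Endothelial markers summed to 75.7 to 134 CPM in NR and to 11.4 or less elsewhere. Most of the NR sum was Pecam1, which averaged 91.2 CPM there. Cdh5, Kdr, Tek and Cldn5 averaged 1.18, 2.3, 6.32 and 1.28 CPM in NR. All 5 were higher in NR than in NPC.

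The genes most like H2-K1 over the 12 libraries, by Pearson correlation of log2 CPM among genes with a mean above 3 log2 CPM, were Chaf1b (r = 0.994), Srxn1 (0.992), Uhrf1 (0.991), Acly (0.989) and Col4a1 (0.987). Among those most like Raet1d were Rnaseh2c (0.991), Mvk (0.988), Ttf2 (0.988) and Gm49322 (0.987). Mvk, mevalonate kinase, was at 28.5 CPM (NPC), 96.4 CPM (NPC(+)), 64.5 CPM (NSC) and 61.5 CPM (NR). These correlations describe the order of 4 group levels over 12 libraries whose depth also differs by group, and they were not tested.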

How the data were processed

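RNA of 12 libraries in 4 groups was measured by RNA-seq. Per the labels, the authors isolated RNA with PicoPure, amplified it with SMART-Seq v4 and processed reads with tools that the submitters' notes list as STAR 2.6 and RSEM 1.1.14 on mm10. The deposited values are whole-number counts per gene. Whether they are rounded RSEM estimates, and the annotation and strand setting, is not given in the sources used here. Symbols, coordinates and exonic lengths came from GENCODE for GRCm38, with a symbol for 45143 of 45706 identifiers, and the rest held 0.124% of the counts. Exonic length was the union of all annotated exons of a gene. The size of each ratio per exonic length, including those of H2-K1 and B2m, depends on it.

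Counts were scaled by TMM, filtered with filterByExpr by group and tested with glmQLFit and glmQLFTest in edgeR 4.0.16 (limma 3.58.1, R 4.3.3) over all 12 libraries, with a prior count of 0.125. P values were adjusted by Benjamini and Hochberg over 17003 genes, and a gene passed at an adjusted p under 0.1 and a p under 0.05. Standard errors were the size of each log2 fold change over sqrt(F). A group with 3 counts or fewer in each library was treated as at the detection limit, which covers counting error only. The 5 ratios used exact permutation tests. The edgeR test was checked on simulated counts for NPC(+) against NPC only. The permutation test was checked on fixed values, with groups fully separated or all values equal. DESeq2 1.42.0 was an alternative, as were other scalings, filters and thresholds, thinning to 3407066 counts, the replicate block and the omission of each library. Further steps ran in Python 3.11.15 with scipy 1.17.1 for tests, pandas 2.3.3 for tables and matplotlib 3.10.9 for plots.

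Replicates were made on different days from different clonal lines according to the study's reporting summary. Deviations of same-numbered libraries correlated at 0.229 to 0.49 between NSC and NR, so the numbers pair these groups, and at -0.047 to 0.062 in all other pairs of groups. The genes and lists were chosen with earlier results of these data known. Named genes are all 10 members, Raet1e, the constitutive proteasome subunits and Psmb10, up to 3 genes with the smallest p per list and comparison, and the 5 most alike genes. Some items that this rule names are not reported here. Promoters came from RefSeq (GRCm38.p6). Those of Tap2 and Nlrc5 are not shown.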

Additional observations from a re-analysis of the deposited data

How the results depend on the processing

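Of 678 tests of members under alternatives 661 kept their direction and their side of the threshold. The others were 8 that no longer passed, 8 that newly passed and 1 that changed sign. For the omission of single libraries this tally holds only the lowest and the highest result. Calls lost in other omissions are not in it. The tally also includes 60 tests with a prior count of 2, all of which stayed the same. The prior count changes the fitted log2 fold change but not the p value. The side of the threshold was therefore fixed in advance for these 60. The change of sign was NR against NSC for Raet1d, which was -0.04 on the log2 scale alone and 0.45 when Raet1d and Raet1e were counted as 1 gene, by the construction of that alternative. The 1 member lower in NPC(+) than in NPC, B2m, became 0 with DESeq2 size factors, upper-quartile scaling, DESeq2's Wald test or an adjusted p under 0.05, and 0 to 1 when a library was left out (the cause was not tested). Thinning to the smallest library, which left Psmb8, Psmb9 and Nlrc5 untested, gave 5 members higher in NSC than in NPC in place of 8, 1 higher in NR than in NSC in place of 2, and 3 lower in NPC(+) than in NSC in place of 5. With NSC and NR replicate 2 only, chosen after seeing the data, 2 members in place of 1 were lower in NSC than in NPC (Tapbp added, -0.31), and 5611 genes in place of 9411 differed between NR and NSC. Members lower in NR than in NSC numbered 1 in place of 0 with no filter on low counts (Tap1, -0.39) and 0 to 1 when a library was left out. Members higher in NPC(+) than in NR numbered 1 to 2 when a library was left out. With the replicate block, which follows the pairing of NSC and NR, 2 members were higher and 0 lower in NR than in NSC as without it, with 9759 genes called, and the block changed no count of members in the other comparisons. The low totals of NPC and NPC(+) limit Psmb8, Psmb9 and Nlrc5 most.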
